A study of Mus musculus with 16 samples.

Results

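Txnip, its paralogs Arrdc1, Arrdc2, Arrdc3 and Arrdc4, and the glucose-sensing transcription factors Mlxip (MondoA) and Mlxipl (ChREBP) were examined in a mouse acute myeloid leukemia line in which the lactate transporter MCT4, encoded by Slc16a3, had been disrupted. These 7 genes were taken by symbol from a table of 53801 genes, and all 7 passed the filter on low counts. The cells carried the MLL-AF9 fusion and were grown in RPMI with serum, IL-3 and SCF. Cas9 had been switched on with 4-OHT in every group, so the controls, which received a non-targeting guide, had also been exposed to both. Poly(A) RNA was sequenced in 4 groups of 4 libraries, namely control and MCT4-KO cells at 20% oxygen and control and MCT4-KO cells at 2% oxygen. The labels give neither the time at each oxygen level nor whether a genotype was 1 clone or a pool. They also do not say whether the 4 libraries of a group came from separate cultures, so the p-values measure the spread between libraries, which may be technical.

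MondoA and ChREBP are held outside the nucleus when glucose is scarce. When glucose 6-phosphate and related sugar phosphates accumulate, they enter the nucleus, bind DNA with their partner Mlx and switch on genes that carry carbohydrate response elements. Txnip and Arrdc4 are their best known targets, and both encode alpha-arrestins, adaptor proteins that recruit ubiquitin ligases to membrane transporters and receptors and so reduce glucose uptake. Txnip also binds thioredoxin. In mouse tissues ChREBP acts mainly in liver and fat, whereas MondoA is most abundant in skeletal muscle.

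The promoters of Txnip, Arrdc4 and Arrdc3 are shown because the first pair are MondoA targets and Arrdc3 had the largest response of the 7 genes to low oxygen. The windows are those of RefSeq on GRCm38.p6, read 5′ to 3′ on the gene's strand. All 7 genes had such a window. In Txnip the capitals mark a pair of CACGNG E-boxes set 5 bases apart, a layout of carbohydrate response elements, and CCAAT or its reverse complement. In Arrdc4 they mark CACGTG and CCAAT, and in Arrdc3 they mark GCGTG, a core of hypoxia response elements.
Txnip, chr3:96557707-96558006, plus strand: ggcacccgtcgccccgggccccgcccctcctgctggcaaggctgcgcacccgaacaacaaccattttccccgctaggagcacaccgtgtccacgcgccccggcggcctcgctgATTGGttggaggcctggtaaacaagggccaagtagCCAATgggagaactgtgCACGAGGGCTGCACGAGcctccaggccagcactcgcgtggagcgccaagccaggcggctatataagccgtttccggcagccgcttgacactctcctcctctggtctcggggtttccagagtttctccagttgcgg
Arrdc4, chr7:68749189-68749488, minus strand: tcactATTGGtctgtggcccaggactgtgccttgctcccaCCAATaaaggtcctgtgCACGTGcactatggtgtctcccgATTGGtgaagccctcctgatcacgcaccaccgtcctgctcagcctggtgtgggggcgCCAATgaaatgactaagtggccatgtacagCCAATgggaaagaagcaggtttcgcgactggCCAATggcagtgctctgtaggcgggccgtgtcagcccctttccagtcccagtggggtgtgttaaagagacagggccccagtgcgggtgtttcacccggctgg
Arrdc3, chr13:80883134-80883433, plus strand: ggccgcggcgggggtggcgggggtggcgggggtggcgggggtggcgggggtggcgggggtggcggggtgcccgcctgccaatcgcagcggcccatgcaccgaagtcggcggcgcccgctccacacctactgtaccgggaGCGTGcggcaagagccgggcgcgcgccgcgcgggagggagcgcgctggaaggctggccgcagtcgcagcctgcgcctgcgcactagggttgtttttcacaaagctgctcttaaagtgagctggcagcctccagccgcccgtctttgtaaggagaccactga

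Each motif was searched on both strands. The paired layout occurred once in the Txnip window, as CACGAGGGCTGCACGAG from -85 to -69 relative to the annotated start, and in none of the windows of the other 6 genes. It was present in 16 of 32817 RefSeq windows of the same length (0.0488%). Only this direct repeat with this spacing was searched, so pairs with other letters, orientation or spacing would be missed. Arrdc4 held a single CACGTG from -193 to -188, a motif found in 7.15% of windows, and 6 copies of CCAAT, which 37.4% of windows contain at least once. Among the other genes only Mlxipl held CACGTG, once in 1 of its 2 windows, from -98 to -93. Txnip held 2 copies of CCAAT. The Arrdc3 window shown held GCGTG once, from -111 to -107, and no ACGTG, and these occur in 32.4% and 19.6% of windows. Of 3 RefSeq windows of Arrdc3, the other two held GCGTG 1 and 2 times, and one of those held ACGTG once. GCGTG also occurred in windows of the other genes, with 2 copies in Txnip, 3 in Arrdc1, 2 in Arrdc2, 1 in Arrdc4, 2 in Mlxip and 0 and 3 in the windows of Mlxipl, and those in Txnip and Arrdc4 are not capitalised. CACGTG contains ACGTG on both strands, so those matches overlap. These matches describe the letters in the windows only.

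Levels are given as CPM, reads scaled to a common library size, after scaling of library sizes by TMM, the trimmed mean of M values. Changes are log2 fold changes ± standard error from edgeR's quasi-likelihood test with Benjamini-Hochberg adjustment over 13774 genes, and a gene was called at an adjusted p under 0.05. Libraries held 21192179 to 28871459 estimated counts, and the biological coefficient of variation was 4.61%. The targeted gene Slc16a3 averaged 210 ± 23.0 CPM (SD, n = 4) in control cells and 79.9 ± 11.1 CPM in MCT4-KO cells at 20% oxygen, and 812 ± 23.4 against 365 ± 5.83 CPM at 2% oxygen. It was lower in the MCT4-KO libraries at both oxygen levels, by log2 fold changes of -1.39 ± 0.076 and -1.15 ± 0.0718. All 10 myeloid markers examined exceeded 1 CPM, and their summed level was 4054 to 4360 CPM at 20% oxygen and 6518 to 7101 CPM at 2%. The 6 lymphoid markers summed to at most 0.0943 CPM in any library, and Cd3e was at 0 throughout. Of 6 erythroid and platelet markers 2 exceeded 1 CPM, with sums of 1.83 to 2.94 CPM at 20% and 4.49 to 6.93 CPM at 2% oxygen. Of 6 stromal and epithelial markers 2 exceeded 1 CPM, Pecam1 with a mean of 230 CPM and Pdgfrb with 1.33 CPM, while Cdh5 was at 0. The sums, which were mostly Pecam1, were 180.5 to 188 CPM at 20% and 262.6 to 304.1 CPM at 2%. The part of these shifts with oxygen in the results below was not tested. In bulk RNA, fewer cells of a kind and less RNA per cell cannot be told apart.

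**Figure D1:**
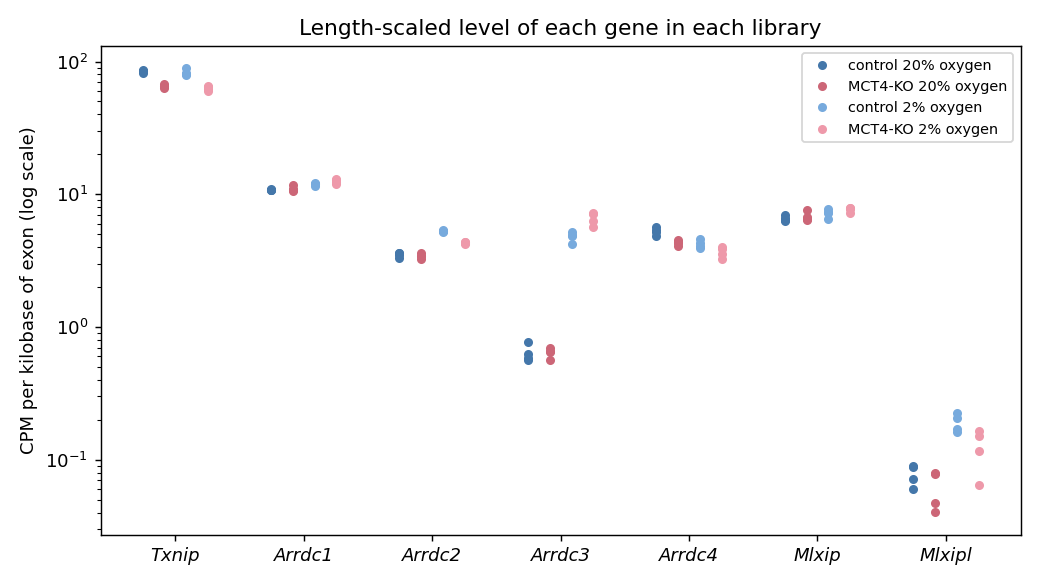
Level of each of the 7 genes in each library, in CPM per kilobase of exon on a log scale, with 1 point per library and 1 colour per group. Txnip lies above every other gene in all 4 groups, Mlxipl lies below them all, and Arrdc3 moves from 0.637 in control cells at 20% oxygen to 4.82 at 2%.

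Per kilobase of exon, Txnip was the most abundant of the 7 genes in every group, with 84.1 ± 1.99 CPM per kb (SD, n = 4) in control cells at 20% oxygen. Arrdc1 followed at 10.8 ± 0.121, Mlxip at 6.57 ± 0.280, Arrdc4 at 5.29 ± 0.330, Arrdc2 at 3.50 ± 0.141 and Arrdc3 at 0.637 ± 0.095 CPM per kb. Mlxipl was lowest at 0.0777 ± 0.0141. No neighbours in this order overlapped, and the order was the same in MCT4-KO cells at 20% oxygen. At 2% oxygen in control cells Arrdc2 (5.30), Arrdc3 (4.82) and Arrdc4 (4.22 CPM per kb) lay close together, and the libraries of each adjacent pair overlapped. In MCT4-KO cells at 2% oxygen Arrdc3 stood above both, at 6.55 CPM per kb against 4.30 for Arrdc2 and 3.66 for Arrdc4, without overlap.

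Of the length-scaled RNA of the 5 alpha-arrestins, Txnip made up 80.32% to 80.89% in the 4 control libraries and 75.87% to 78.09% in the 4 MCT4-KO libraries at 20% oxygen. At 2% oxygen its share was 74.86% to 77.58% in the control libraries and 68.59% to 71.34% in the MCT4-KO libraries. The mean Arrdc3 share was 0.610% ± 0.0835 (SD, n = 4) and 0.760% ± 0.0674 at 20% oxygen, and 4.44% ± 0.531 and 7.28% ± 0.904 at 2%, in control and MCT4-KO cells in that order. The Txnip share did not overlap between genotypes at either oxygen level. These shares are descriptive and were not tested.

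**Figure D2:**
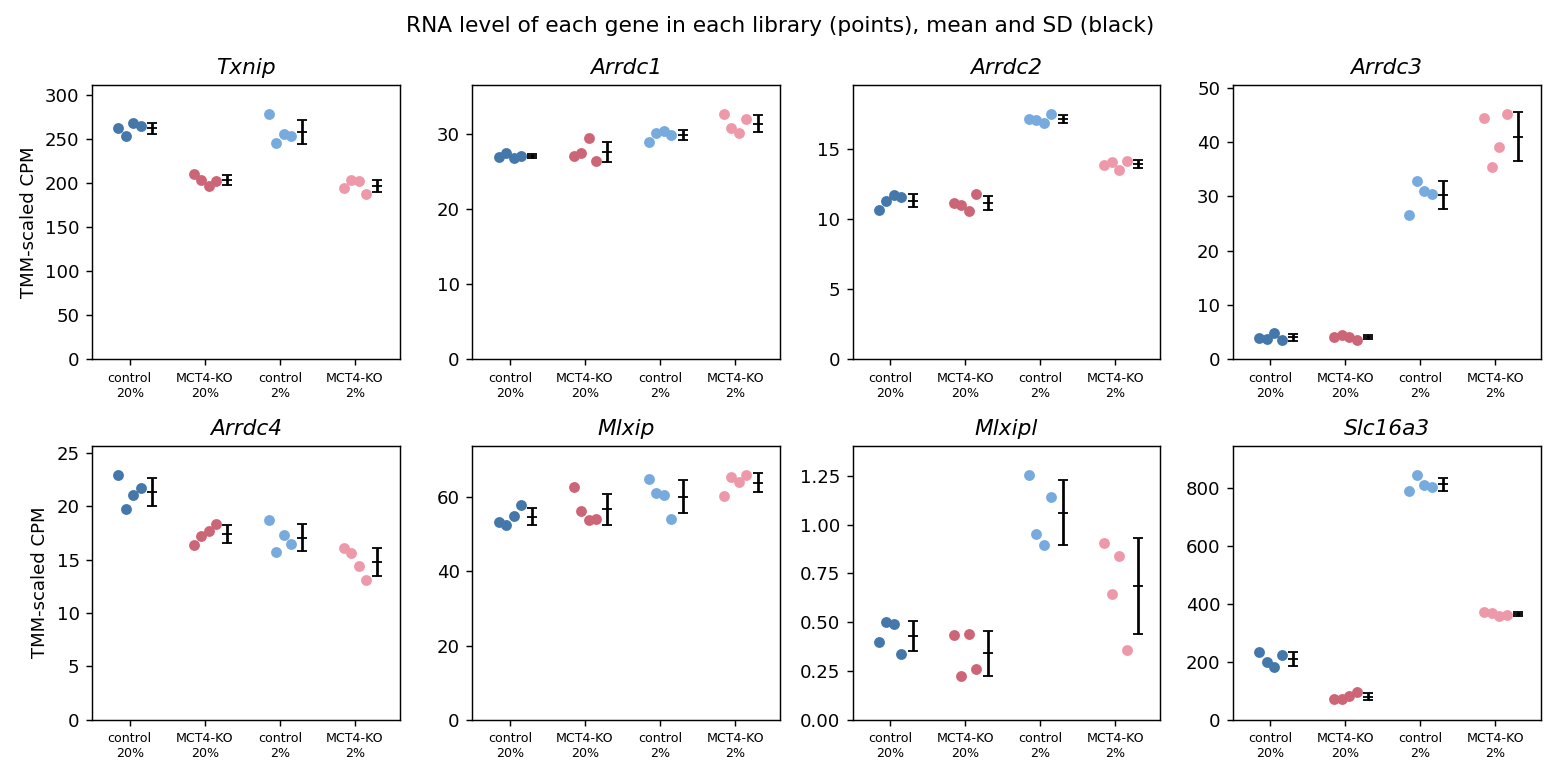
Level of each of the 7 genes and of the targeted gene Slc16a3 in each of the 16 libraries, in TMM-scaled CPM on axes that start at 0, with the mean and SD of each group in black. Txnip is lower in all MCT4-KO libraries than in all control libraries, and Arrdc3 is below 5 CPM in all 8 libraries at 20% oxygen.

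The loss of MCT4 went with lower Txnip at both oxygen levels, and with lower Arrdc4 at 20% oxygen. At 20% oxygen 0 of the 7 genes were called higher and 2 lower in MCT4-KO cells, where 9.76% of all tested genes were called, 4.96% higher and 4.80% lower. At 2% oxygen 1 was called higher and 3 lower, against 38.4% of all genes called, 19.4% higher and 19.1% lower. The median log2 difference of the 7 genes was -0.0245 at 20% and -0.206 at 2% oxygen, beside -0.00513 and -0.00404 over all genes. Low oxygen raised 5 of the 7 and lowered 1 in control cells, where 78.3% of all genes were called, 38.7% higher and 39.6% lower. In MCT4-KO cells the counts were again 5 and 1, with 76.4% of all genes called, 37.7% higher and 38.7% lower. With most genes called, the count of 6 of 7 is near that background. The medians were 0.142 in control and 0.184 in MCT4-KO cells, beside -0.0169 and -0.0139 over all genes. The knockout comparisons share their libraries with the oxygen comparisons and are set side by side only.

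**Figure D3:**
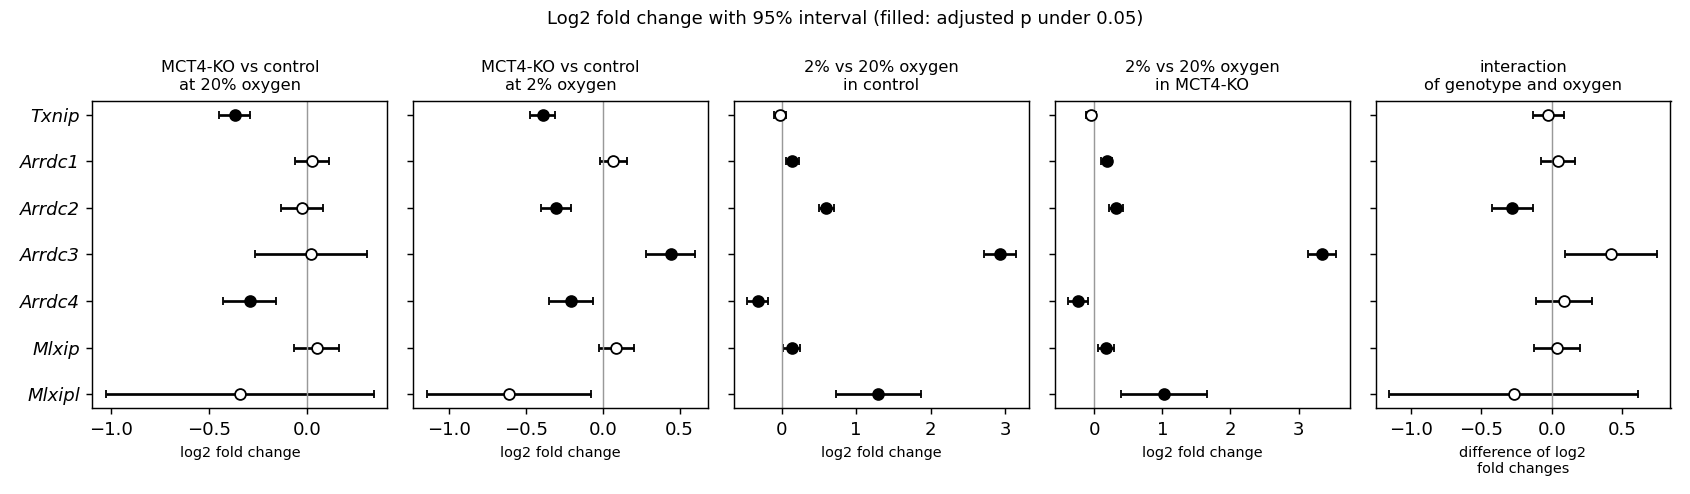
Log2 fold change of each of the 7 genes with its 95% interval in the knockout comparisons, the oxygen comparisons and the interaction, with filled points for an adjusted p under 0.05. Txnip lies at -0.37 and -0.39 in the knockout comparisons and near 0 in the oxygen comparisons, while Arrdc3 lies at 2.93 and 3.35 in the oxygen comparisons.

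Neither sensor gene was called between genotypes at either oxygen level. Mlxip, which encodes MondoA, was at 53.4, 52.6, 54.9 and 57.9 CPM in the control libraries at 20% oxygen and at 62.9, 56.2, 53.7 and 54.0 CPM in the MCT4-KO libraries. At 2% oxygen the control libraries were at 64.8, 61.0, 60.6 and 54.1 CPM and the MCT4-KO libraries at 60.4, 65.4, 63.9 and 65.9 CPM. All groups overlapped within each comparison. The knockout differences were 0.050 ± 0.0546 (adjusted p = 0.641) and 0.087 ± 0.0545 (adjusted p = 0.218), with 95% intervals of -0.064 to 0.16 and -0.026 to 0.20. Mlxip was called higher at 2% oxygen, by 0.14 ± 0.0549 in control cells (adjusted p = 0.0282) and 0.17 ± 0.0542 in MCT4-KO cells (adjusted p = 0.00637). The call in control cells was lost without any 1 of 5 libraries, namely, with the difference and then the adjusted p, control replicate 1 at 20% (0.13, 0.0674), replicate 2 at 20% (0.12, 0.0784), replicate 1 at 2% (0.10, 0.116), replicate 2 at 2% (0.13, 0.0642) and replicate 3 at 2% (0.13, 0.0545). Both differences fell below 0 when libraries were scaled by their total alone, to -0.067 and -0.0025. That scaling moves the median of all genes by -0.205 and -0.178, about as far as it moved Mlxip. The sign of the Mlxip difference with oxygen therefore depends on the scaling, and which scaling is right was not tested.

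Mlxipl, which encodes ChREBP, was scarcely detected, with 6 to 29 counts per library. It was at 0.397, 0.499, 0.489 and 0.336 CPM in control cells at 20% oxygen and at 1.25, 0.950, 0.896 and 1.14 CPM at 2%. The control groups did not overlap, as was the case for 70.2% of all genes, and the fold was 2.46, a log2 change of 1.30 ± 0.276 (adjusted p = 0.000239). In MCT4-KO cells it was at 0.435, 0.222, 0.441 and 0.261 CPM at 20% and 0.906, 0.643, 0.840 and 0.358 CPM at 2% oxygen, a change of 1.03 ± 0.303 (adjusted p = 0.00438) with overlapping groups. The knockout differences of Mlxipl were -0.34 ± 0.327 (adjusted p = 0.587) at 20% and -0.61 ± 0.256 (adjusted p = 0.0659) at 2% oxygen. The latter was called by limma-voom (-0.66, adjusted p = 0.0462) and without MCT4-KO replicate 1 (-0.76, adjusted p = 0.0439). The 95% intervals were -1.02 to 0.34 at 20% and -1.15 to -0.077 at 2% oxygen. At these counts the difference at 20% could not be resolved, and that at 2% was borderline.

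Mlx, the shared DNA-binding partner, averaged 52.8 and 49.4 CPM in control and MCT4-KO cells at 20% oxygen and 48.8 and 50.8 CPM at 2%. Its knockout differences were -0.096 (adjusted p = 0.128) and 0.058 (adjusted p = 0.255). With oxygen Mlx differed by -0.11 ± 0.039 in control cells (adjusted p = 0.0121) and 0.041 in MCT4-KO cells (adjusted p = 0.34). The control groups overlapped, and the call was lost with no filter (adjusted p = 0.0509) and without control replicate 3 at 2% oxygen (adjusted p = 0.0542). In MCT4-KO cells Mlx was called lower with scaling by library totals (-0.14, adjusted p = 0.0036).

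Txnip, the alpha-arrestin that slows glucose uptake and binds thioredoxin, was lower in MCT4-KO cells at both oxygen levels. At 20% oxygen it was at 263, 254, 268 and 265 CPM in the control libraries and 211, 204, 197 and 203 CPM in the MCT4-KO libraries. At 2% oxygen the control libraries were at 278, 246, 256 and 254 CPM and the MCT4-KO libraries at 195, 203, 202 and 188 CPM. The lowest control library, at 246 CPM, was above the highest MCT4-KO library, at 211 CPM, so genotypes did not overlap at either oxygen level. Groups that do not overlap were found for 14.6% of all genes at 20% oxygen and 37.0% at 2%.

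The Txnip difference was -0.37 ± 0.038 at 20% oxygen (adjusted p = 3.46e-06), a fold of 0.775, and -0.39 ± 0.0382 at 2% oxygen (adjusted p = 2.51e-07), a fold of 0.763. Among genes called in that direction, 204 of 661 fell by more at 20% and 698 of 2624 at 2%. The median absolute log2 change of called genes was 0.232 and 0.242. An exact two-sided permutation test over libraries gave p = 0.0286 in each, the smallest that 4 against 4 allows. Oxygen did not move Txnip past the threshold, with -0.023 ± 0.0379 in control cells (adjusted p = 0.59, 95% interval -0.10 to 0.056) and -0.046 ± 0.0382 in MCT4-KO cells (adjusted p = 0.281, -0.13 to 0.034). Scaled by library totals alone it was called lower at 2% oxygen, by -0.23 and -0.22, which is close to that scaling's shift of all genes. The knockout difference at 2% less that at 20% oxygen was -0.023 ± 0.0538, with an interval of -0.14 to 0.089 (adjusted p = 0.799).

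Txnip lies on GRCm38 chromosome 3 from 96557957 to 96561883, and 606 of its 3123 exonic bases overlap the antisense gene Gm15441. The strand setting of the counting is not given, so reads of the overlap could be assigned to either gene. Gm15441 received 0.24% to 0.859% as many counts as Txnip.

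Arrdc4, the other well known MondoA target, was lower in MCT4-KO cells at 20% oxygen, and it fell at 2% oxygen in both genotypes. It was at 22.9, 19.7, 21.1 and 21.7 CPM in the controls and at 16.4, 17.3, 17.7 and 18.4 CPM in MCT4-KO libraries at 20% oxygen. At 2% it was at 18.7, 15.8, 17.3 and 16.5 CPM in the controls and at 16.1, 15.6, 14.4 and 13.1 CPM in MCT4-KO libraries. The genotypes did not overlap at 20% oxygen, as for 14.6% of all genes, and did at 2%. The knockout difference was -0.29 ± 0.0647 at 20% (adjusted p = 0.00626) and -0.21 ± 0.0694 at 2% oxygen (adjusted p = 0.024). The call at 2% is fragile. With the adjusted p after each difference, it was lost with scaling by library totals (-0.17, 0.0688), and without control replicate 1 (-0.16, 0.0953), control replicate 3 (-0.20, 0.0529), MCT4-KO replicate 3 (-0.19, 0.0648) or MCT4-KO replicate 4 (-0.15, 0.094). The fall at 2% oxygen was -0.32 ± 0.0661 in control cells (adjusted p = 0.000162) and -0.24 ± 0.068 in MCT4-KO cells (adjusted p = 0.00347), without overlap in either genotype, as for 70.2% and 72.4% of all genes. The interaction was 0.085 ± 0.095, with an interval of -0.11 to 0.28 (adjusted p = 0.569). Arrdc4 is on chromosome 7 from 68736995 to 68749241.

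Arrdc3, an alpha-arrestin studied for directing beta-adrenergic receptors and integrins to endosomes, had the largest oxygen response of the 7 genes. In control cells it was at 3.93, 3.68, 4.85 and 3.51 CPM at 20% oxygen and 26.7, 32.8, 30.9 and 30.4 CPM at 2%. In MCT4-KO cells it was at 4.04, 4.36, 4.15 and 3.54 CPM at 20% and 44.4, 35.5, 39.1 and 45.2 CPM at 2%. Every library at 2% oxygen was above every library at 20%. Oxygen levels did not overlap for 70.2% of all genes in control cells and 72.4% in MCT4-KO cells. At 2% the lowest MCT4-KO library was above the highest control library, and genotypes were separate for 37.0% of all genes. The rise was 7.61-fold in control cells (2.93 ± 0.102, adjusted p = 4.71e-16) and 10.2-fold in MCT4-KO cells (3.35 ± 0.0983, adjusted p = 3.4e-17). Of the genes called higher, 219 of 5332 rose by more in control cells and 155 of 5189 in MCT4-KO cells. Between genotypes Arrdc3 was not called at 20% oxygen (0.022 ± 0.137, adjusted p = 0.95), with an interval of -0.26 to 0.31 from 93 or more counts per library. At 2% it was 1.36-fold higher in MCT4-KO cells (0.44 ± 0.0756, adjusted p = 0.000119).

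The interaction for Arrdc3 was 0.42 ± 0.157 and missed the threshold (adjusted p = 0.0597). With the adjusted p after each difference, it was called with scaling by library totals (0.45, 0.0451), with no filter (0.42, 0.02) and by DESeq2 (0.42, 0.0333). It was also called without control replicate 4 at 20% oxygen (0.48, 0.0475), control replicate 2 at 2% (0.46, 0.0437) or MCT4-KO replicate 2 at 2% (0.48, 0.0232). Arrdc3 is on chromosome 13 from 80883384 to 80896042.

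Arrdc2 rose at 2% oxygen, by less in MCT4-KO cells. Its libraries were at 10.7, 11.3, 11.7 and 11.6 CPM in the controls and at 11.1, 11.0, 10.6 and 11.7 CPM in MCT4-KO cells at 20% oxygen. At 2% they were at 17.2, 17.1, 16.8 and 17.5 CPM in the controls and at 13.9, 14.1, 13.5 and 14.1 CPM in MCT4-KO cells. The genotypes overlapped at 20% and were separate at 2%, as for 37.0% of all genes. The rise was 1.52-fold in control (0.60 ± 0.0486, adjusted p = 4.3e-10) and 1.25-fold in MCT4-KO cells (0.32 ± 0.0494, adjusted p = 5.85e-06). The knockout difference was -0.025 ± 0.0505 at 20% (adjusted p = 0.857) and -0.30 ± 0.0476 at 2% oxygen (adjusted p = 4.83e-05). The interaction was -0.28 ± 0.0694, with a 95% interval of -0.42 to -0.13 (adjusted p = 0.00653). It was the only interaction called among the 7 genes, and 22.9% of all genes were called, 11.3% in that direction.

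Arrdc1, which is known for driving the budding of vesicles from the plasma membrane, rose slightly at 2% oxygen in both genotypes and was not called between genotypes. It was at 27.0, 27.5, 26.9 and 27.1 CPM in the controls and at 27.1, 27.5, 29.4 and 26.4 CPM in MCT4-KO libraries at 20% oxygen. At 2% it was at 29.04, 30.2, 30.5 and 30.0 CPM in the controls and at 32.7, 30.9, 30.1 and 32.0 CPM in MCT4-KO libraries. Oxygen levels did not overlap within a genotype, as for 70.2% of all genes in the controls and 72.4% in MCT4-KO cells, and the rises were 0.14 ± 0.0415 (adjusted p = 0.00405) and 0.18 ± 0.0408 (adjusted p = 0.000382). With scaling by library totals these became -0.063 and 0.0064, neither called. The median of all genes moves by -0.205 and -0.178 under that scaling, about as far as Arrdc1 did. The rises of Arrdc1 therefore depend on the scaling. Genotypes overlapped at each oxygen level, with differences of 0.028 ± 0.0412 (adjusted p = 0.742) and 0.070 ± 0.0411 (adjusted p = 0.19). The second was called with scaling by library totals (0.11, adjusted p = 0.04).

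Genes whose profile over the 16 libraries lay closest to that of Txnip were found by the root mean square difference of centred log2 CPM, where Txnip itself had an SD of 0.202. The nearest was Kynu, an enzyme of tryptophan breakdown (0.0673), and Ecpas (0.0865), Snx13 (0.0927) and Rasgrp4 (0.103) were also among them. Kynu differed between genotypes by -0.48 at 20% and -0.42 at 2% oxygen, a description only, since it was picked for its likeness to Txnip. For Arrdc4, whose SD was 0.215, the nearest were Tsc22d1 (0.0835), Pura (0.0933), Pld4 (0.0972), Snhg6 (0.101) and Fzd1 (0.103).

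The share of all genes called in each comparison, given above, is the background of the counts that follow. With oxygen, where 78.3% and 76.4% of all genes were called, counts of about that share say nothing particular of a list. Of 16 tested genes that MondoA or ChREBP are known to drive in other tissues, 11 were called higher and 1 lower at 2% oxygen in control cells, and 14 and 1 in MCT4-KO cells. The medians were 0.767 and 0.55. Scd1 and Scd2, which desaturate fatty acids, rose by 3.55 and 1.63 in control and 3.47 and 1.63 in MCT4-KO cells, and the transcription factor Bhlhe40 by 4.15 and 4.19. Bhlhe40 and several others of the list are also well known hypoxia targets. In MCT4-KO cells 2 were called higher and 0 lower at 20% oxygen, and 6 and 2 at 2%. The first count went from 0 to 3, and the last from 1 to 3, when single libraries were left out. At 2% Mid1ip1 was higher by 0.19 ± 0.0291 and Khk, ketohexokinase, lower by -0.32 ± 0.0742.

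Of 13 tested genes of glucose uptake and glucose 6-phosphate handling, 12 were called higher and 1 lower at 2% oxygen in each genotype, with medians of 0.976 and 0.779. The glucose transporter Slc2a1 rose by 2.35 in the controls and by 2.56 in MCT4-KO cells, and Slc2a3 by 2.77 and 2.62. Hk2 rose by 0.996 and 1.10, and it is counted in both this list and the previous one. Knockout differences were called in 2 higher and 1 lower at 20% oxygen, with Hk3 higher by 0.29 ± 0.0343 (adjusted p = 1.38e-05). With single libraries left out these counts were 1 to 2 and 0 to 1. At 2% they were called in 3 higher and 3 lower, with G6pdx higher by 0.39 ± 0.0414 and Slc2a9 lower by -0.41 ± 0.0577. Slc2a9 was instead called higher at 20% oxygen, by 0.24 ± 0.0631 (adjusted p = 0.0203). Slc2a3 was called lower at both levels, by -0.18 ± 0.0517 at 20% (adjusted p = 0.0356) and -0.33 ± 0.0479 at 2% (adjusted p = 2.54e-05). With single libraries left out, the calls at 20% oxygen were kept in 13 of 16 cases for Slc2a9 and 9 of 16 for Slc2a3.

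**Figure D4:**
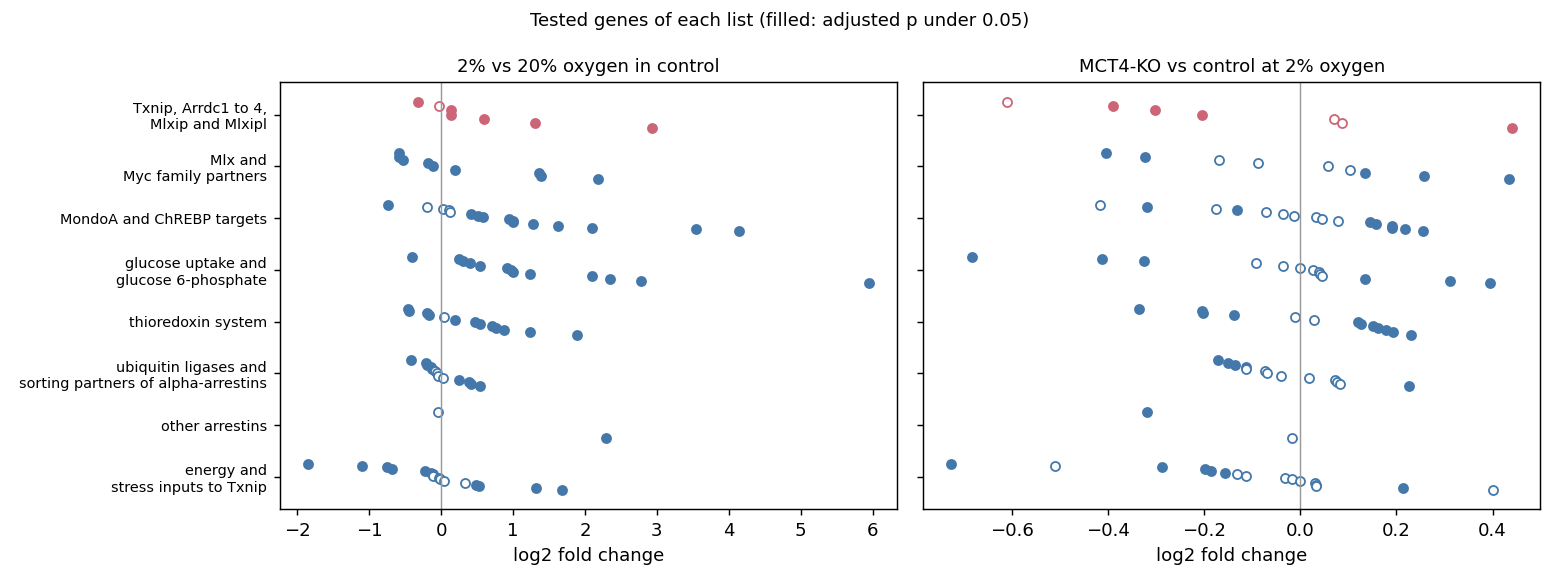
Log2 fold change of the 7 genes and of every tested gene of each pathway list, at 2% against 20% oxygen in control cells (left) and in MCT4-KO against control cells at 2% oxygen (right), filled where the adjusted p was under 0.05. On the left 12 of 13 glucose uptake genes lie above 0 and are filled, and Txnip lies near 0.

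Among 9 tested partners of the Mlx and Myc network, 4 were higher and 5 lower at 2% oxygen in control cells, and 3 and 4 in MCT4-KO cells. The repressors Mxd1 and Mxi1 rose by 2.18 and 1.39 in control cells. In MCT4-KO cells at 2% oxygen 3 were called higher and 2 lower, with Myc higher by 0.43 ± 0.0457, Max higher by 0.26 ± 0.0328 and Mxd4 lower by -0.40 ± 0.0476. At 20% oxygen 1 was called higher, Mxd4 at 0.19 ± 0.0466, and 0 lower, with 1 to 2 higher when single libraries were left out.

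Of the 13 genes of the thioredoxin system, whose core protein Txnip binds, 8 were called higher and 4 lower at 2% oxygen in control cells, and 9 and 2 in MCT4-KO cells. Txn1 rose by 0.88 and Prdx5 by 1.89 in control cells. Knockout differences at 2% oxygen were called in 7 higher and 4 lower, with Txnrd1 higher by 0.19 ± 0.0327. At 20% oxygen 0 were higher and 1 lower, Srxn1 by -0.26 ± 0.0382 (adjusted p = 0.000201).

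Among 13 tested ubiquitin ligases and sorting partners of alpha-arrestins, 4 were higher and 5 lower at 2% oxygen in control cells, and 3 and 5 in MCT4-KO cells, and scaling by library totals gave 9 lower in each. Nedd4 and Nedd4l, ligases recruited by alpha-arrestins, rose by 0.42 and 0.39, and Tsg101 fell by 0.42 on the log2 scale. In MCT4-KO cells 1 was higher and 4 lower at 2% oxygen, and 0 and 1 at 20%. The count of 4 was 1 with scaling by library totals, and 2 without control replicate 2, MCT4-KO replicate 1 or MCT4-KO replicate 2. Among the other arrestins only Arrb1 and Arrb2 were tested. Arrb1 rose by 2.29 in the controls and by 1.90 in MCT4-KO cells, and was lower by -0.32 ± 0.0326 in MCT4-KO cells at 2% oxygen. At 20% oxygen Arrb2 was called higher by 0.12 ± 0.0363 (adjusted p = 0.0413), a call kept under 5 of 8 other settings and in 10 of 16 cases with a library left out, with adjusted p up to 0.149.

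Of 16 genes that feed energy or stress signals into Txnip, 4 were higher and 7 lower at 2% oxygen in control cells, and 4 and 8 in MCT4-KO cells. In control cells 11 were lower with scaling by library totals. Ddit4, an inhibitor of mTORC1, rose by 1.68 in the controls and by 1.82 in MCT4-KO cells, while the stress kinase gene Ern1 fell by 1.11 and 1.10 on the log2 scale. In MCT4-KO cells 0 were higher and 2 lower at 20% oxygen, with Ddit4 lower by -0.33 ± 0.0697, and 1 and 5 at 2%. The count of 2 went from 1 to 3 with single libraries left out. Foxo1 was lower by -0.73 ± 0.0678 at 2% oxygen (adjusted p = 1.5e-07).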

How the data were processed

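Poly(A) RNA was measured in 16 libraries. The authors deposited expected counts per gene, made per the submitters' processing notes with HISAT2, RSEM and the mm10 build. Tool versions, annotation and counting strand are not given in the sources here, so reads of overlapping genes may have been divided wrongly. Values were rounded to whole counts (10.1% were not whole). Symbols and exon lengths came from GENCODE vM21 (GRCm38), which matched 53706 of 53801 identifiers. Genes were kept by filterByExpr, which left 13774 with 99.94% of the counts.

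Tests used edgeR 4.0.16 in R 4.3.3 (quasi-likelihood, TMM scaling) with 1 mean per group over all 16 libraries. Single-gene checks used exact two-sided permutation tests over libraries on log2(CPM + 0.1). Alternatives were DESeq2 size factors, scaling by library totals, no filter, at least 1 CPM in 8 libraries, DESeq2 1.42.0, limma-voom (limma 3.58.1), only the groups compared, a replicate block, and each library left out in turn. Of each pathway list, counts by direction and up to 3 called genes of smallest adjusted p per comparison were named, and Mlx always. Hk2 was named after its values were seen. The 5 genes most like Txnip and Arrdc4 were taken from those with a mean log2 CPM of at least 3, and not all of them are reported here. The script was tested on simulated data. The genes and lists were chosen with earlier results of these data known.

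Libraries held 21192179 to 28871459 counts, and 1 count was worth 0.0413 CPM on average. Between libraries of a group the chi-square statistic per gene was 1.75 to 12.2, above sampling noise, so none was counted as repeat sequencing of 1 library. The statistic cannot tell whether the libraries came from separate cultures. Control replicate 4 at 2% oxygen differed most from its group, and every called result of the 7 genes keeps its call without it.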

Additional observations from a re-analysis of the deposited data

Results flagged for a closer look

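The difference of Arrdc2 between MCT4-KO and control cells was not the same at the 2 oxygen levels, by a test of the interaction. The knockout difference was -0.025 at 20% and -0.30 at 2% oxygen, and their difference was -0.28 ± 0.0694 (edgeR, adjusted p = 0.00653). All 4 MCT4-KO libraries were below all 4 control libraries at 2% oxygen, as was one genotype below the other for 37.0% of all genes. Mlx was picked out in the same way, with an interaction of 0.15 ± 0.0549 (edgeR, adjusted p = 0.0481), and its call does not hold under all settings.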

How the results depend on the processing

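Txnip was called lower in MCT4-KO cells at both oxygen levels under every alternative, as was Arrdc4 at 20% oxygen, and the Arrdc2 interaction kept its call. For Arrdc4 at 2% oxygen, scaling by library totals gave -0.17, and leaving out single libraries gave -0.25 to -0.15. Under that scaling the oxygen differences of Txnip became -0.23 and -0.22 (called) and its interaction 0.0040, those of Arrdc1 and Mlxip in control cells -0.063 and -0.067, and those of Mlxip and Mlx in MCT4-KO cells -0.0025 and -0.14 (Mlx called). The share of calls that were higher went from 49.4% to 35.2% with oxygen in control cells, from 49.3% to 35.4% in MCT4-KO cells, and from 50.4% to 63.1% for the knockout at 2% oxygen. Interactions called among the 7 genes numbered 2 with that scaling, no filter or DESeq2, and 1 to 2 with libraries left out. Genes called at 20% oxygen numbered 895 to 1699 with libraries left out, lowest without MCT4-KO replicate 2.

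Leaving out single libraries moved the Txnip interaction from -0.044 to 0.013, the Mlxip interaction from -0.0089 to 0.088, and knockout differences at 20% oxygen of Arrdc1 from -0.0038 to 0.049, Arrdc2 from -0.052 to 0.0014, Arrdc3 from -0.035 to 0.12 and Mlxip from -0.00079 to 0.080. None of these was called. The Mlx interaction lost its call with DESeq2 size factors (0.15, adjusted p = 0.056), no filter (0.131), DESeq2 (0.0628) and the block (0.0663), and kept it in 3 of 16 cases with a library left out. The causes were not tested.

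Replicate numbers recur across groups, but deviations of same-numbered libraries were hardly correlated (-0.0494 to 0.0674, 0 of 4 pairs over 0.1 in each comparison). In the oxygen comparison of MCT4-KO cells 3 of 4 libraries matched their own number best. In each other comparison 0 or 1 of 4 did. The replicate block gave 1059, 4984, 10710, 10420 and 2781 called genes against 1344, 5295, 10790, 10520 and 3155, and changed no call of the 7 genes. Depth limits Mlxipl most, at 6 to 29 counts per library.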
